A study of Mus musculus with 2 samples.

Results

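The coagulation and complement cascades were represented by 45 listed genes, 28 of coagulation and fibrinolysis and 17 of complement, out of 27998 genes in the deposited tables. All 45 symbols were found, and each gene was assigned to the cell class, defined by marker genes, in which its level was highest. The values are from single-nucleus RNA sequencing of livers from 12-week-old C57BL/6 mice, taken 48 h after partial hepatectomy (PHx), an operation that removes part of the liver and lets the remainder regrow. One library was labelled HKO and 1 was labelled WT; the series text names the mice Sox9HKO and Sox9f/f, and both groups had PHx. The abbreviation HKO is not spelt out, and neither the Cre line nor the number of animals behind each library is given in the sources used here. With 1 library per group there is no replicate check, so differences are described without tests or p-values. Each interval given is an exact 95% one for counts, which takes in counting error alone.

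Coagulation is a cascade of serine proteases and cofactors that ends in thrombin, which turns soluble fibrinogen into fibrin, while anticoagulants and the plasmin system limit and dissolve the clot. Complement is a parallel cascade in which the classical, lectin and alternative routes meet at C3 and end in the membrane attack complex. Hepatocytes secrete most of these plasma proteins. Liver sinusoidal endothelial cells are known as the main source of factor VIII, macrophages of C1q, and cells of the monocyte lineage of the factor XIII A subunit.

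The HKO library held 61123904 unique molecular identifiers (UMIs) in 14912 barcodes and the WT library 64609301 UMIs in 14701 barcodes; 70 barcode sequences occurred in both. Levels are CPM, the UMIs of a gene scaled to the total UMIs of its class. The hepatocyte-like class had 8142 HKO and 10923 WT nuclei, with median depths of 3922 and 3525 UMIs and median mitochondrial shares of 0.0737% and 0.299%. The clusters of the hepatocyte-, endothelial- and macrophage-like classes were each made up almost wholly of 1 library, whereas the stellate-, T/NK-, B-, dendritic- and cholangiocyte-like classes were single clusters holding nuclei of both. Hepatocyte transcripts were counted in every class: the 15 hepatocyte markers reached, in endothelial-like nuclei, a median share of 85.4% (HKO) and 91.6% (WT) of the level they had in hepatocyte-like nuclei. Sox9, the targeted gene, was at 5.88 CPM (210 UMIs) in HKO against 11.3 CPM (530 UMIs) in WT hepatocyte-like nuclei. In endothelial-like nuclei it was at 5.81 CPM in HKO against 8.38 CPM in WT. The deleted part of Sox9 is not given, so whether 3' tags report the deletion is unknown, and these levels do not check the labels.

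For 4 members the class of highest level was the same in both libraries and clear of the next class beyond counting error. These were F8 in endothelial-like, Masp1 in stellate-like, C1qc in macrophage-like and F13a1 in dendritic-like nuclei. By mean CPM of both libraries, 17 members were highest in hepatocyte-like, 9 in B-like, 6 in T/NK-like, 4 in endothelial-like, 4 in macrophage-like, 2 in stellate-like, 2 in dendritic-like nuclei and 1 in cholangiocyte-like nuclei. The first class was the same in HKO alone and WT alone for 24 of 45 members. The B-like class had only 267 HKO and 57 WT nuclei, and genes such as Fga, Fgb and C3 were placed there with levels close to those of every other class. Among classes of at least 100 nuclei per library, 26 members were highest in hepatocyte-like nuclei. In endothelial-like nuclei these 26 still stood at a median share of 85.6% (HKO, 80.4 to 108%) and 89.6% (WT, 80.2 to 98.1%) of that level, close to the shares of the hepatocyte markers. Members placed in lymphocyte-like classes are therefore given by their hepatocyte-like values, with the rule's own class beside the counts.

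Across classes of the rule, 41 of 45 members had a mean of at least 10 CPM and at least 20 UMIs, and 13 of these were lower in HKO by at least 1 on the log2 scale. None was higher by that size, and the median log2 ratio of HKO over WT was -0.61. The 13 comprised 8 of 9 in B-like, 2 of 6 in T/NK-like and 3 of 17 in hepatocyte-like nuclei. The class of each member was chosen from these same levels. In WT alone 9 members were highest in B-like nuclei, against 2 in HKO alone. A class entered through a high WT level tilts the ratio downward. The count of 13 and the median of -0.61 are therefore not read as results about the members. In B-like nuclei, Fgb was at 1137 CPM (951 UMIs) in HKO against 4828 CPM (1029 UMIs) in WT, a log2 ratio of -2.09. The others there were Mbl2 at -2.04, Fgg at -1.93, C3 at -1.75, Klkb1 at -1.56, Fga at -1.38, F2 at -1.19, Cfb at -1.14 and F13b at -0.61. In T/NK-like nuclei the ratios were -1.26 for Cfi, -1.10 for C8b, -0.91 for Serpind1, -0.65 for C2, -0.41 for F7 and 0.67 for F9, each from 22 to 177 UMIs per library. Each of these 15 ratios had the sign of the hepatocyte-like one, which is not separate support for it. The 15 hepatocyte markers stood at medians of 90.9% (HKO) and 85.2% (WT) of their hepatocyte-like level in B-like nuclei. In T/NK-like nuclei the medians were 91.9% (HKO) and 97.7% (WT). The part of RNA free in the droplets in these levels was not tested. Over all genes past the same floors, 5.95% were lower and 12.6% higher in B-like nuclei, and 5.56% lower and 8.02% higher in T/NK-like nuclei.

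In hepatocyte-like nuclei alone, 36 members passed the floors, 12 were lower in HKO by at least 1 on the log2 scale, 24 lay in between and 0 were higher by that size. Of all 8388 genes past the floors there, 5.31% were lower and 3.12% higher by that size. The members' median log2 ratio was -0.68, against 0.17 for all genes. Of the 36 members' ratios, 33 were below 0. The share of all genes below 0 was not counted, though their median lay above 0. For the 28 members of at least 100 CPM on average, 8 were lower and 0 higher, against 5.70% lower and 4.05% higher of 2122 genes of that level. Albumin, which is no member, was at 2543 CPM in HKO against 6478 CPM in WT, while the nuclear RNA Malat1 was at 50938 CPM in HKO against 38121 CPM in WT. Summed haemoglobin transcripts, markers of red cells, were at 38.5 CPM in HKO against 16.7 CPM in WT hepatocyte-like nuclei, and their part in the members' ratios was not tested.

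**Figure D1:**
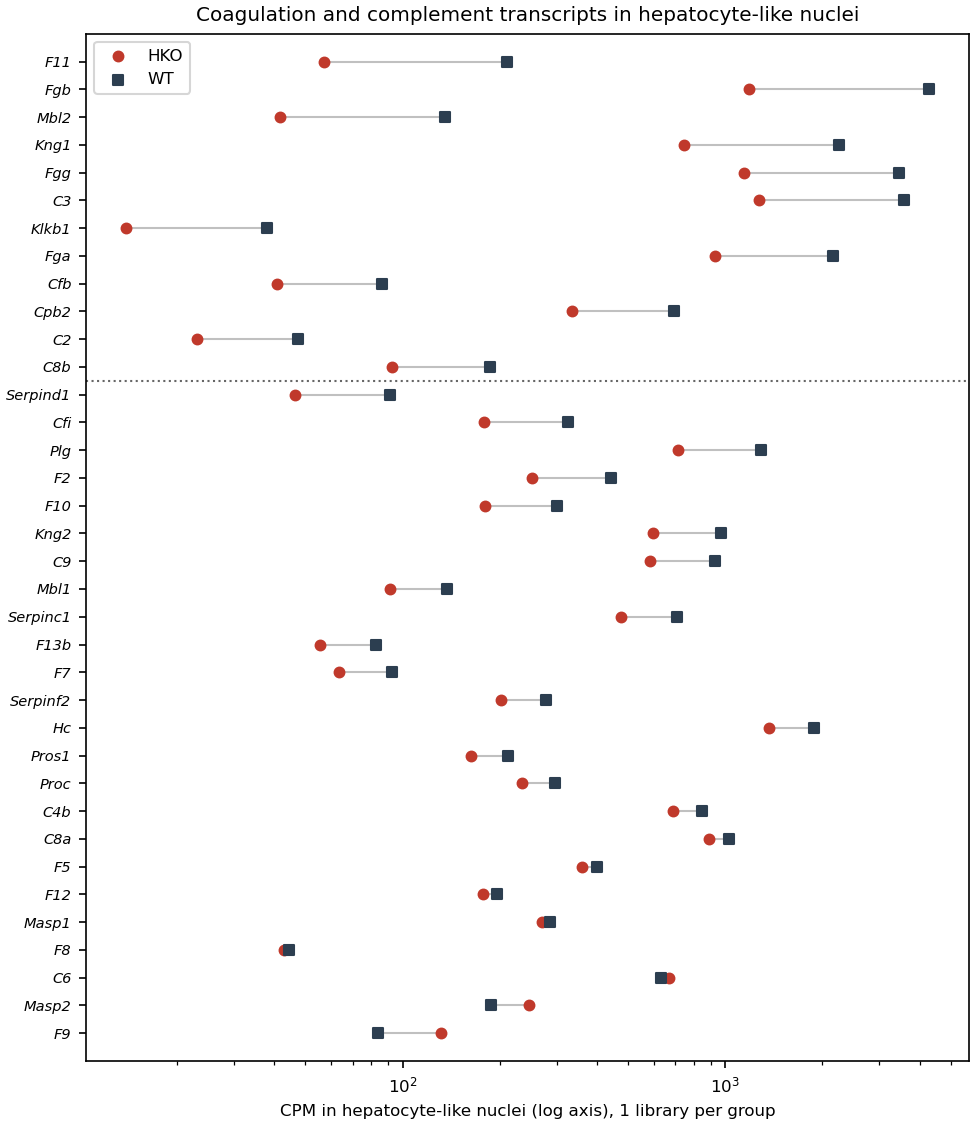
Levels of the 36 coagulation and complement genes that passed the floors in hepatocyte-like nuclei, as CPM on a log axis, with HKO as circles and WT as squares (1 library each). Genes run from the lowest HKO over WT ratio at the top; the 12 above the dotted line were lower in HKO by at least 1 on the log2 scale, and F9, Masp2 and C6 at the bottom were the ones with HKO to the right of WT.

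All 3 fibrinogen chains, whose products assemble into the clot protein, were lower in HKO. Fgb, the beta chain, was at 1187 CPM (1176 to 1198) in HKO against 4266 CPM (4248 to 4285) in WT, which is a fold of 0.278 (0.275 to 0.281). Fgg, the gamma chain, was at 1145 CPM in HKO against 3445 CPM in WT, a log2 ratio of -1.59. Fga, the alpha chain, was at 927 CPM in HKO against 2156 CPM in WT, a log2 ratio of -1.22. The Fgb ratio was similar in nuclei of other classes, at -1.93 in endothelial-like, -1.74 in macrophage-like and -2.04 in stellate-like nuclei. Because hepatocyte transcripts were counted in every class, these ratios are not separate support.

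The 3 genes lie within 42.1 kb of chromosome 3 (83007724 to 83049863, GRCm38), with Fga and Fgg on the plus strand and Fgb on the minus strand. Promoter sequences are shown for them and for F11 and C3, the genes of the contact system and of the central complement step with large ratios, because these members were lower together in HKO; they were chosen after their values were seen. The 250 bases before the start are from RefSeq (GRCm38.p6), whose start for Fga lies inside the GENCODE gene used for coordinates; they run 5' to 3' on the strand of the gene. Of 45 members, 33 had an entry in that table. Capitals mark matches, on either strand, to GTTAAT (an HNF1 type site), TTGCNNAA (a C/EBP type site) or TTCNNNGAA (a STAT type site).
Fga (chr3:83025903-83026152, plus strand): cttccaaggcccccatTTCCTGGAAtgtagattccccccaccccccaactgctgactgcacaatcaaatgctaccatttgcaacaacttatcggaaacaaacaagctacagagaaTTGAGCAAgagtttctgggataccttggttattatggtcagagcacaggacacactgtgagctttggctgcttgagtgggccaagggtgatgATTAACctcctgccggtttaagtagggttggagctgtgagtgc
Fgb (chr3:83049864-83050113, minus strand): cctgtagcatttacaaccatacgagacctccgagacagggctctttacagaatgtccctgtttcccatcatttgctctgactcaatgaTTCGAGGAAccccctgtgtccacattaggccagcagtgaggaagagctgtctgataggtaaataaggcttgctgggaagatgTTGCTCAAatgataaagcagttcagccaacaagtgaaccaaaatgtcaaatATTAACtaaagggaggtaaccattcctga
Fgg (chr3:83007474-83007723, plus strand): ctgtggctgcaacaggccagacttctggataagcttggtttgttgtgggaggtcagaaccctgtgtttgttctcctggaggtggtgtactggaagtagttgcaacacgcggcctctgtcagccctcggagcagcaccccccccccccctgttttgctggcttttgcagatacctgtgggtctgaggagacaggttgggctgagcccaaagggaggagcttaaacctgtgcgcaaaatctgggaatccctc
F11 (chr8:45262032-45262281, minus strand): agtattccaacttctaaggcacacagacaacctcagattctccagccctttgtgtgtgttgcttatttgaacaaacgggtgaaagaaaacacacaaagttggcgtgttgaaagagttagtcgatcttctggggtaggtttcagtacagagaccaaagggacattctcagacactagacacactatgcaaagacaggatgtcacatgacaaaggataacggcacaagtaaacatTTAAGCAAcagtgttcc
C3 (chr17:57228137-57228386, minus strand): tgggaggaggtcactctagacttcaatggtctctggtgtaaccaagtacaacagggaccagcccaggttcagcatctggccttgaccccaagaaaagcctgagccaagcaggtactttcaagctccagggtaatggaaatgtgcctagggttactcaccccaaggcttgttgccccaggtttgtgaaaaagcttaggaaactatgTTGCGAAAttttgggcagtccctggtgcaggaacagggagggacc

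Fga and Fgb each held all 3 motifs, as did 0.07% of the 32851 promoters of the table (23 promoters). The 3 motifs were picked by hand and no others were searched, so this share is not read as a measure of rarity. Singly, GTTAAT was found in 6.43%, TTGCNNAA in 9.56% and TTCNNNGAA in 7.02% of those promoters. In Fgb the matches began 29 bases (GTTAAT, as its reverse complement), 80 bases (TTGCNNAA) and 162 bases (TTCNNNGAA) before the start. In Fga they began 43, 135 and 234 bases before the start, in the same order of motifs. F11 and C3 each held 1 TTGCNNAA match, and Fgg held none of the 3. Of the 9 members lower in HKO hepatocyte-like nuclei with an entry, 5 held TTGCNNAA, 3 GTTAAT and 2 TTCNNNGAA. Of all 33 members with an entry, 9 held TTGCNNAA, 6 GTTAAT and 6 TTCNNNGAA. F9 and Masp2, whose ratios were above 0, were among those with TTCNNNGAA, and F9 among those with TTGCNNAA. These are matches of letters in a fixed window and say nothing about binding.

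None of the 4 vitamin K dependent clotting factors (F2, F7, F9 and F10) or the 2 cofactors (F5 and F8) passed the size of 1 in hepatocyte-like nuclei. F2, prothrombin, was at 252 CPM in HKO against 444 CPM in WT (log2 ratio -0.81). F10, the protease that cleaves prothrombin, was at 180 CPM in HKO against 301 CPM in WT (-0.74), and F7, which starts the tissue factor route, was at 63.7 CPM in HKO against 92.5 CPM in WT (-0.54). F9, the protease whose loss causes haemophilia B, ran the other way, with 131 CPM (128 to 135) in HKO against 84.0 CPM (81.4 to 86.7) in WT, a log2 ratio of 0.64. F9 kept this direction in all 14 alternative settings, with log2 ratios between 0.47 and 0.65. F5, the cofactor of factor Xa, was at 361 CPM in HKO against 399 CPM in WT, a log2 ratio of -0.15. F13b, which encodes the carrier subunit of factor XIII, was at 55.6 CPM in HKO against 82.7 CPM in WT (-0.57).

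The contact system starts the intrinsic route and releases bradykinin from kininogen. Of its 5 members, F11, Kng1 and Klkb1 were lower in HKO by more than the size, and Kng2 and F12 were not. F11, the zymogen of factor XIa, was at 56.9 CPM (54.5 to 59.5) in HKO against 210 CPM (206 to 214) in WT, a log2 ratio of -1.87 that was the lowest of the 36. Klkb1, plasma prekallikrein and the neighbour of F11 on chromosome 8 (45269671 to 45308466, with F11 at 45241174 to 45262031), was at 13.9 CPM in HKO against 37.9 CPM in WT (-1.41). F12, whose product is activated on surfaces and activates factor XI, was at 177 CPM in HKO against 196 CPM in WT, a log2 ratio of -0.15. The kininogen genes Kng1 and Kng2 lie near each other on chromosome 16 and differed in size of ratio. Kng1 was at 744 CPM in HKO against 2249 CPM in WT (-1.60), whereas Kng2 was at 598 CPM in HKO against 967 CPM in WT (-0.69). Kng1 and Kng2 are closely related copies. Klkb1 overlaps Cyp4v3 and another gene model also named Klkb1, on the same strand. The counting may therefore have split reads of these genes.

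The 7 anticoagulant and fibrinolysis genes past the floors in hepatocyte-like nuclei had log2 ratios below 0, and of these Cpb2 passed the size. Cpb2, the carboxypeptidase that protects fibrin from plasmin, was at 334 CPM in HKO against 691 CPM in WT (log2 ratio -1.05). Serpind1, heparin cofactor II, was at 46.3 CPM in HKO against 91.6 CPM in WT (-0.98), just short of the size. Plg, the zymogen of plasmin, was at 714 CPM in HKO against 1287 CPM in WT (-0.85). Serpinc1, antithrombin, was at 475 CPM in HKO against 706 CPM in WT (-0.57), and Serpinf2, the plasmin inhibitor, was at 202 CPM in HKO against 278 CPM in WT (-0.46). Proc, protein C, was at 234 CPM in HKO against 296 CPM in WT (-0.34), and its cofactor Pros1 was at 163 CPM in HKO against 212 CPM in WT (-0.38). Pros1 was also at 176 CPM in HKO against 216 CPM in WT endothelial-like nuclei, its class by the rule.

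C3 and Cfb, the substrate and the protease of the alternative pathway, were both lower in HKO by more than the size. C3 was at 1275 CPM (1263 to 1287) in HKO against 3576 CPM (3559 to 3593) in WT, a log2 ratio of -1.49. Cfb was at 41.0 CPM in HKO against 86.7 CPM in WT (log2 ratio -1.07). C2, the protease of the classical and lectin convertase, was at 23.0 CPM in HKO against 47.3 CPM in WT (-1.02), while C4b, its partner, was at 687 CPM in HKO against 847 CPM in WT (-0.30). C2 and Cfb are neighbours on the minus strand of chromosome 17 (C2 at 34862604 to 34898265 and Cfb at 34856374 to 34862518), and both overlap the gene model Gm20547, so their counts may be split.

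The lectin pathway binds sugars through mannose-binding lectins and cuts C4 and C2 through the MASP proteases. Mbl2, one of the lectins, was at 41.6 CPM in HKO against 136 CPM in WT, a fold of 0.306 (0.289 to 0.324), whereas its relative Mbl1 was at 91.5 CPM in HKO against 137 CPM in WT (log2 ratio -0.58). Masp2, the protease that cuts C4, was higher in HKO, with 246 CPM (241 to 252) in HKO against 187 CPM (183 to 191) in WT, a log2 ratio of 0.39. Cfi, the protease that inactivates C3b, was at 179 CPM in HKO against 325 CPM in WT (-0.86).

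Among the 5 terminal genes, whose products form the membrane attack complex, only C8b passed the size, at 92.6 CPM in HKO against 187 CPM in WT (log2 ratio -1.01). C9, the pore-forming component, was at 585 CPM in HKO against 929 CPM in WT (-0.67). Hc, which encodes the component that starts the complex, was at 1367 CPM in HKO against 1882 CPM in WT (-0.46). C8a, whose product pairs with that of C8b, was at 893 CPM in HKO against 1026 CPM in WT (-0.20). C6 was at 668 CPM in HKO against 632 CPM in WT, a log2 ratio of 0.08 that turned to -0.09 under TMM and median ratio scaling. C8a and C8b lie side by side on chromosome 4 (104815679 to 104876398 and 104766317 to 104804548) and had different ratios.

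The mitochondrial share of a nucleus, a sign of carried-over cytoplasm, differed between the libraries, so the ratios were also taken within strata of it. Under 0.1% there were 4900 HKO and 758 WT hepatocyte-like nuclei, from 0.1 to 0.3% there were 2252 and 4731, and over 0.3% there were 990 and 5434. The members' median log2 ratio was -0.65, -0.68 and -0.60 in the 3 strata, from low to high, and 9, 10 and 9 of the 36 were lower by the size, against 4.83%, 4.53% and 3.87% of all genes. Fgb was at -1.57, -1.66 and -1.51, each smaller in size than the -1.85 of the whole class. C3 was at -1.25, -1.22 and -1.20, also smaller than the -1.49 of the class, and F11 at -1.97, -1.94 and -1.77. Fga, Cfb and C2 were past the size in the whole class and at -0.92, -0.88 and -0.79 in the lowest stratum.

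**Figure D2:**
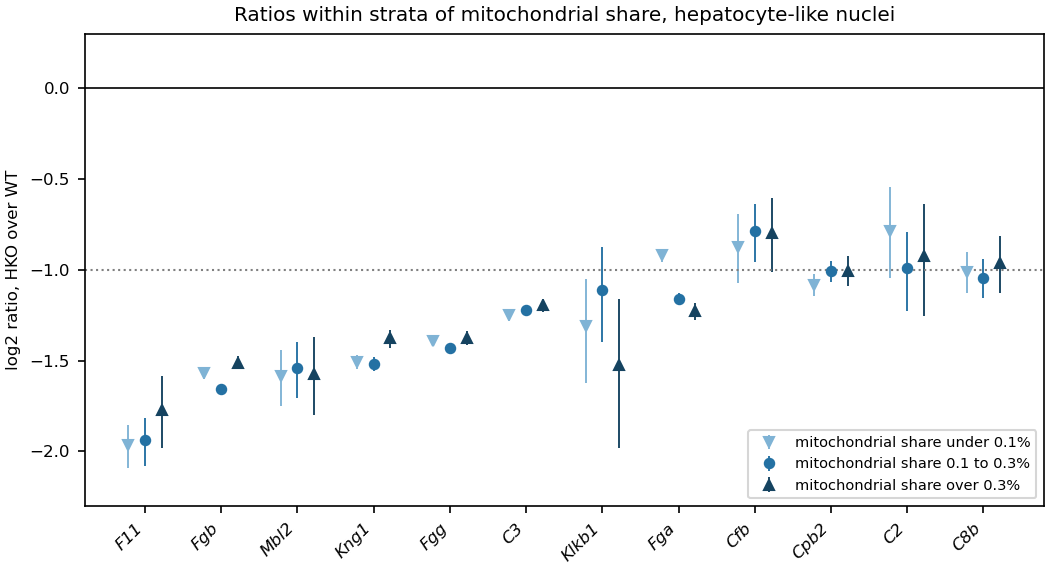
Log2 ratio of HKO over WT for the 12 members lower by at least 1 in hepatocyte-like nuclei, within 3 strata of mitochondrial share; bars are exact 95% counting intervals and the dotted line is a log2 ratio of -1. All 36 plotted ratios were below 0; those of Cfb and C2 stayed above -1 in the 3 strata, Fga and C8b lay on both sides of -1, and F11 lay lowest in each stratum.

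Within each library, most members were at a higher level in nuclei over 0.3% than in nuclei under 0.1%, 30 of 36 in HKO and 24 of 36 in WT, against 40.9% of all genes in HKO and 30.0% in WT. Fgb was 1.66-fold higher in HKO and 1.59-fold in WT, and C3 1.63-fold in HKO and 1.57-fold in WT. C9 ran the other way, at 0.878 times in HKO and 0.970 times in WT. In an unnamed WT cluster of 519 nuclei led by mitochondrial genes, Fgb was at 3.09 times its WT hepatocyte-like level and F11 at 0.686 times.

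Hepatocytes differ in gene use from the portal to the central vein, and the members were compared between nuclei with more periportal and with more pericentral marker UMIs. Of the 36, 6 were periportal in both libraries beyond counting error, against 7.90% of all genes, and 9 were pericentral, against 6.64%. A side needs an interval clear of 1, so it depends on the UMI count of a gene. A mean of at least 100 CPM was reached by 28 of the 36 members and 2122 of the 8388 genes. The shares are therefore not matched on level and are not read as an excess. The periportal members included 3 of the 5 terminal complement genes. C9 had periportal over pericentral ratios of 1.54 (1.48 to 1.59) in HKO and 1.36 (1.33 to 1.39) in WT, Hc 1.11 in HKO and 1.22 in WT, and C8a 1.16 in HKO and 1.14 in WT. F10, Kng2 and Masp2 were on the same side with ratios between 1.04 and 1.08. C6, a terminal gene too, was on the pericentral side, with 0.713 (0.692 to 0.734) in HKO and 0.774 (0.755 to 0.794) in WT. The 3 fibrinogen chains, F2, F5, Pros1, Kng1 and Cfb were also pericentral in both libraries, with fibrinogen ratios between 0.922 and 0.950. Pericentral nuclei numbered 1860 in HKO and 4652 in WT, and periportal ones 5106 and 4814. Their median mitochondrial shares were 0.0778% (HKO) and 0.323% (WT), against 0.0710% and 0.276% in periportal nuclei. Cfb was 1.62-fold (HKO) and 1.53-fold (WT) higher over 0.3% share than under 0.1%, whereas F5 was at 0.956 and 0.952 times. The part of mitochondrial share in the zonal ratios was not tested.

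For F11, Cpb2, Pros1, C4b, Hc, C6 and C9 the intervals of the zonal ratio did not overlap between the libraries. The share of all genes with such intervals was not taken, so this is not read as a trait of the members. Of these, F11 and Cpb2 had a ratio below 1 in HKO and above 1 in WT, although the WT interval of F11 included 1. F11 had a periportal over pericentral ratio of 0.753 (0.680 to 0.835) in HKO and 1.04 (0.998 to 1.09) in WT, and its log2 ratio of HKO over WT was -2.03 in periportal and -1.57 in pericentral nuclei. Cpb2 had 0.935 (0.895 to 0.977) in HKO and 1.10 (1.07 to 1.13) in WT, with log2 ratios of -1.15 and -0.92. The fibrinogen chains showed no such split: Fgb was at -1.83 in both zones, Fgg at -1.58 and -1.57, and Fga at -1.19 and -1.21.

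**Figure D3:**
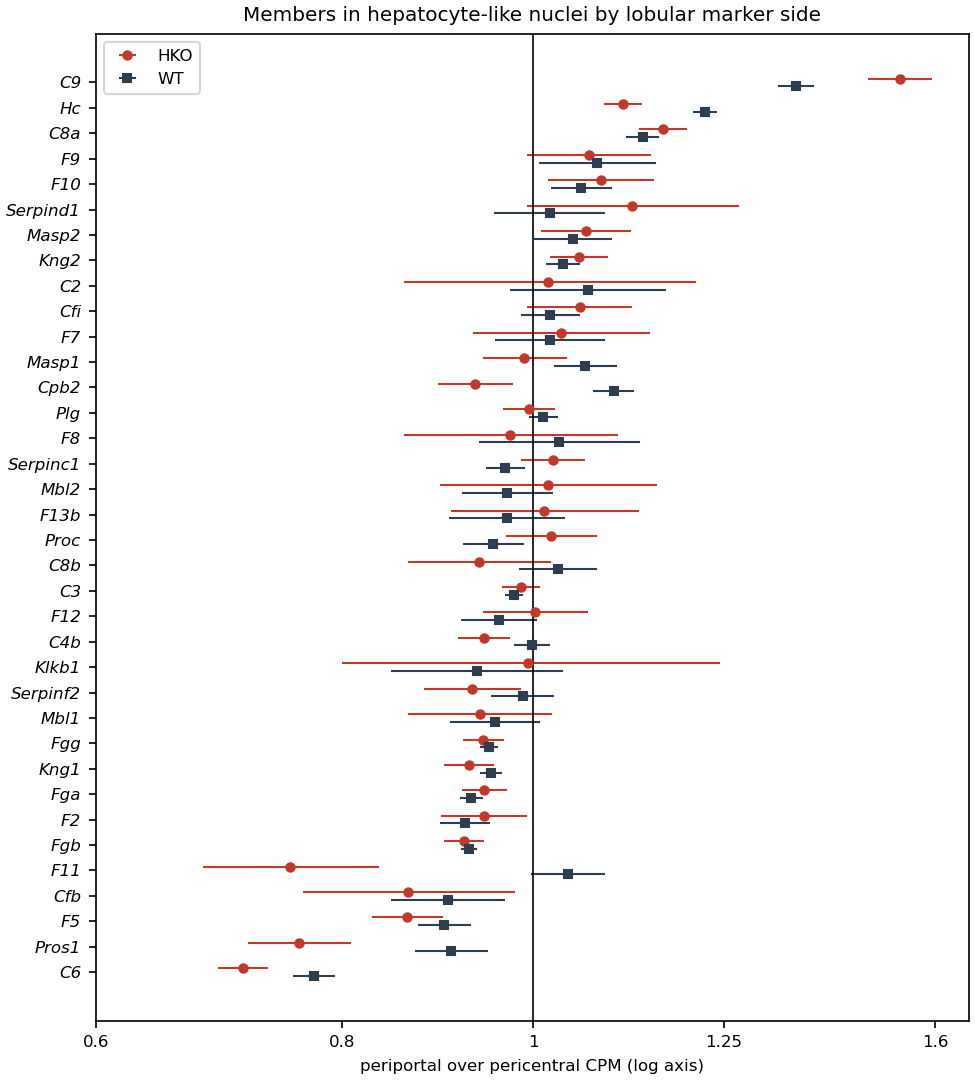
Periportal over pericentral CPM in hepatocyte-like nuclei for the 36 members past the floors, on a log axis, with HKO as circles and WT as squares and exact 95% counting intervals. C9 sits furthest to the periportal side and C6 furthest to the pericentral side in both libraries, while F11 lies at 0.753 in HKO and 1.04 in WT.

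Of the members that the rule assigned to endothelial-, macrophage-, stellate- or dendritic-like nuclei, none past the floors differed by the size of 1 in its own class. F8, the cofactor missing in haemophilia A, was at 433 CPM (419 to 447) in HKO against 439 CPM (422 to 458) in WT endothelial-like nuclei, a fold of 0.985 (0.935 to 1.04). The F8 level of hepatocyte-like nuclei was 43.0 CPM in HKO against 44.5 CPM in WT. After thinning each nucleus to 1000 UMIs, 41.1% of 2350 HKO and 40.1% of 1129 WT endothelial-like nuclei held an F8 UMI, against 4.43% (HKO) and 4.58% (WT) among hepatocyte-like nuclei, whose median depths are given above; before thinning the endothelial-like shares were 69.4% and 75.6%. Median depths were 2071.5 UMIs in HKO and 3269 UMIs in WT endothelial-like nuclei. F8 lies on the minus strand of the X chromosome (75172715 to 75382615).

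Tfpi, the inhibitor of the tissue factor route, was at 51.5 CPM in HKO against 51.8 CPM in WT endothelial-like nuclei. Its hepatocyte-like level was 3.36 CPM in HKO against 3.81 CPM in WT. Thbd, thrombomodulin, was at 10.5 CPM (8.44 to 12.8) in HKO against 5.14 CPM (3.39 to 7.48) in WT endothelial-like nuclei, with 92 and 27 UMIs, and its mean was below the floor of 10 CPM. Vwf, which tethers platelets, was also below the floor, at 5.35 CPM in HKO against 6.67 CPM in WT endothelial-like nuclei. In endothelial-like nuclei with a UMI of large vessel markers Vwf was at 14.7 CPM (36 UMIs) in HKO against 18.3 CPM (23 UMIs) in WT. Without such a UMI it was at 1.74 CPM in HKO against 3.01 CPM in WT. The rule placed Vwf in cholangiocyte-like nuclei, on 0 HKO and 3 WT UMIs in 123 and 31 nuclei. Procr, the endothelial protein C receptor, had its highest level in macrophage-like nuclei, at 9.11 CPM in HKO against 6.59 CPM in WT, below the floor. Plat, the tissue plasminogen activator, had 3 UMIs in each library in stellate-like nuclei and was below the floor everywhere. None of the 3 endothelial-like members past the floors reached the size in either direction, against 7.10% of all genes in that class.

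**Figure D4:**
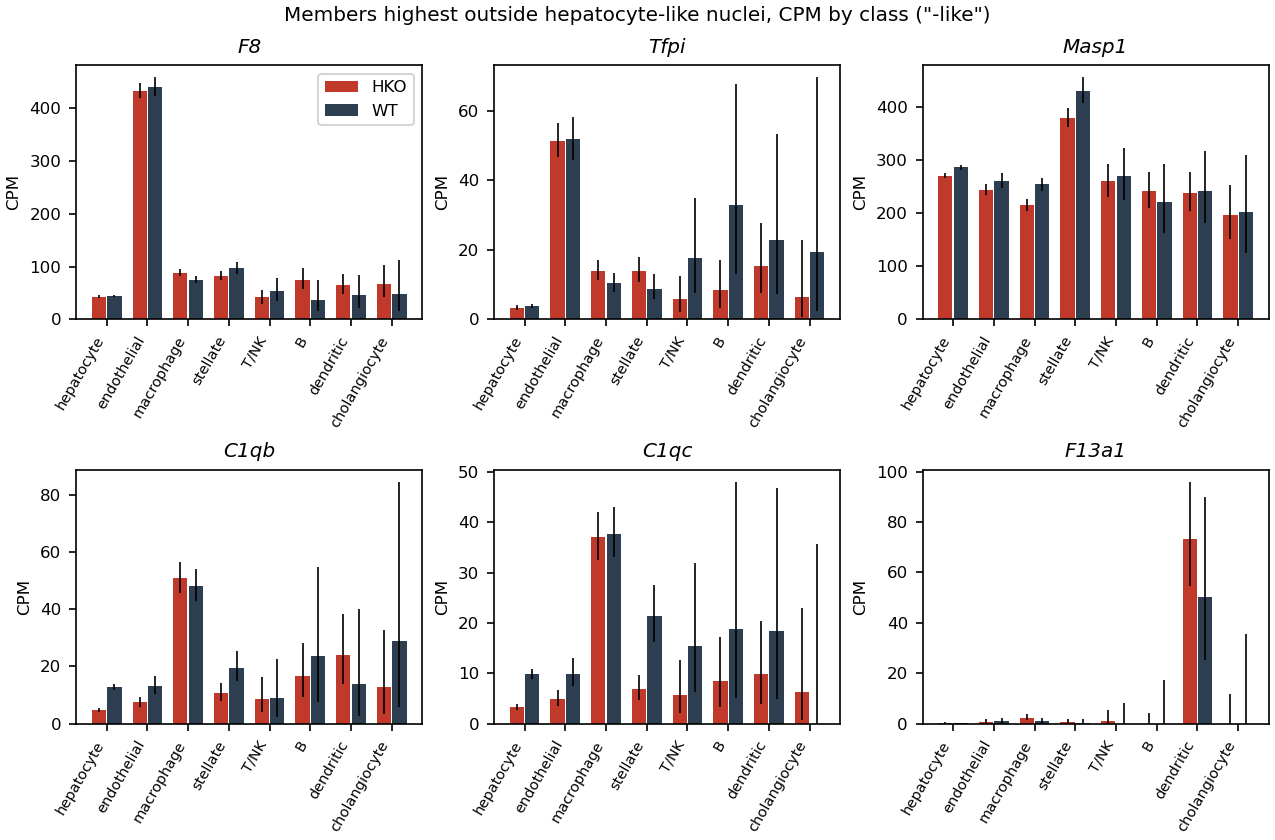
CPM of 6 members in the 8 named classes, with HKO as the left and WT as the right bar of each pair (1 library each) and exact 95% counting intervals; each panel has its own axis from 0. F8 and Tfpi peak in endothelial-like, Masp1 in stellate-like, C1qb and C1qc in macrophage-like and F13a1 in dendritic-like nuclei. The HKO and WT intervals at the peak overlap for 5 of the 6 and not for Masp1. Overlap depends on the UMIs at the peak, 1715 (HKO) and 1212 (WT) for Masp1 against 52 and 11 for F13a1. The share of all genes without overlap was not taken.

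Masp1, the protease that activates MASP-2, was highest in stellate-like nuclei, at 379 CPM (362 to 398) in HKO against 431 CPM (407 to 456) in WT. Its hepatocyte-like level was 271 CPM in HKO against 286 CPM in WT. Its log2 ratio was -0.18 in stellate-like nuclei, where 7.23% of all genes passed the size in either direction. Stellate markers were at a median of 2.31% of their own level in HKO and 5.57% in WT hepatocyte-like nuclei.

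The C1q genes, whose products form the recognition unit of the classical pathway, lie together on chromosome 4 (136880129 to 136898803 from C1qb to C1qa). In macrophage-like nuclei C1qa was at 43.7 CPM in HKO against 38.9 CPM in WT, C1qb at 50.9 CPM in HKO against 48.2 CPM in WT, and C1qc at 37.0 CPM in HKO against 37.7 CPM in WT. The folds lay between 0.982 and 1.13, and each interval included 1, while 6.45% of all genes passed the size in that class. Outside macrophages the C1q levels were lower in HKO beyond counting error in hepatocyte-like and endothelial-like nuclei. The share of all genes lower in that way was not taken, and the hepatocyte-like means of the C1q genes were below the floor. C1qa was at 4.62 CPM in HKO against 14.2 CPM in WT hepatocyte-like nuclei, and at 8.65 CPM in HKO against 20.6 CPM in WT endothelial-like nuclei. In stellate-like nuclei C1qc was at 6.86 CPM in HKO against 21.3 CPM in WT. C1qb was at 4.85 CPM in HKO against 12.9 CPM in WT, and C1qc at 3.33 CPM in HKO against 9.84 CPM in WT hepatocyte-like nuclei. The 12 macrophage markers stood at a median of 7.18% of their macrophage-like level in HKO and 11.1% in WT hepatocyte-like nuclei, and their part in these C1q counts was not tested. Nearly all macrophage-like nuclei had more Kupffer than monocyte marker UMIs (1679 of 1764 in HKO and 1025 of 1056 in WT).

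F13a1, the catalytic subunit of factor XIII and among the leading genes of the dendritic-like cluster although left out of the clustering, was at 73.2 CPM (52 UMIs, 54.7 to 96.0) in HKO against 50.3 CPM (11 UMIs, 25.1 to 90.0) in WT nuclei of the dendritic-like class. It was at 2.39 CPM in HKO against 0.988 CPM in WT macrophage-like nuclei, and at 0.252 CPM in HKO against 0.235 CPM in WT hepatocyte-like nuclei. The class had 250 HKO and 50 WT nuclei and was mixed, with 4 dendritic, 3 macrophage and 3 neutrophil markers raised in its cluster. The monocyte marker Ccr2 was at 23.9 CPM in HKO against 13.7 CPM in WT. The neutrophil marker S100a9 was at 53.5 CPM in HKO against 50.3 CPM in WT. In HKO the monocyte markers Ccr2, Chil3 and S100a4 were highest in this class. Ly6c2 (14.1 CPM) was higher in HKO B-like nuclei (16.7 CPM), and Cx3cr1 (11.3 CPM) in HKO cholangiocyte-like nuclei (12.7 CPM). The intervals of the F13a1 levels overlapped, in a class where 16.6% of all genes passed the size in either direction. Platelets also carry F13a1, and platelet genes were counted in WT nuclei of this class. Itga2b, the platelet integrin chain, was at 4.22 CPM (3 UMIs) in HKO against 77.8 CPM (17 UMIs) in WT. Pf4, Ppbp, Gp1ba and Gp9 had 0 UMIs each in HKO against 2, 2, 2 and 1 UMIs in WT. The part of platelets in the F13a1 levels was not tested. Mbl1, placed there by the rule as well, had a log2 ratio of -0.97 in these nuclei.

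Other genes of the pathways gave counts by the same rule. Of 29 further coagulation and fibrinolysis genes, 17 passed the floors in their class, and by the size 1 was lower and 1 higher, the median log2 ratio being -0.48. In hepatocyte-like nuclei alone, 2 of 17 were lower and 1 higher, against the 5.31% lower and 3.12% higher of all genes given above. Pzp, pregnancy zone protein, a broad protease inhibitor, was at 1927 CPM in HKO against 6193 CPM in WT hepatocyte-like nuclei (log2 ratio -1.68). Serpine2, protease nexin, which inhibits thrombin, was higher, at 29.6 CPM (21 UMIs) in HKO against 13.7 CPM (3 UMIs) in WT dendritic-like nuclei (1.08, with a fold interval that includes 1) and at 29.2 CPM in HKO against 4.64 CPM in WT hepatocyte-like nuclei (2.53). Of 34 further complement genes, 24 passed the floors, and by the size 3 were lower and 1 higher, the median log2 ratio being -0.06. In hepatocyte-like nuclei alone, 3 of 16 were lower and 0 higher, against the same shares of all genes. Counts this small are not read as apart from those shares. C8g, the third chain of the C8 component, was at 25.2 CPM in HKO against 92.9 CPM in WT hepatocyte-like nuclei (-1.86), and Vtn, vitronectin, which blocks the terminal complex, was at 245 CPM in HKO against 701 CPM in WT (-1.52). C7, of the terminal complex, was at 13.9 CPM in HKO against 29.1 CPM in WT stellate-like nuclei (-1.04), and Itgam, a chain of complement receptor 3, at 25.3 CPM in HKO against 9.15 CPM in WT dendritic-like nuclei (1.42, from 18 HKO and 2 WT UMIs, with a fold interval that includes 1).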

How the data were processed

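Nuclear RNA was profiled with 10x Genomics 3' libraries, 1 HKO and 1 WT; groups follow the sample titles, since the genotype field holds the age. The deposited values are raw UMI counts per gene and barcode; per the file headers they were made with Cell Ranger 5.0.0, and the submitters' processing notes list STAR, Seurat 3.2.0 and the GRCm38 build too, without saying what each was used for. Whether intronic reads or strand were used in counting, and the isolation of nuclei, are points the sources used here do not give; the labels' extract protocol describes total RNA.

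Kept barcodes had 500 genes or more and a mitochondrial share below 10%, which left 14902 of 14912 (HKO) and 14515 of 14701 (WT). Scrublet marked 0 HKO and 0 WT barcodes; its thresholds were passed by 0.0235% (HKO) and 0.0689% (WT) of its own simulated doublets, so its calls were not informative. Whether doublets were removed before deposit is not stated in the labels, and none were removed here. Both libraries were clustered together (scanpy 1.11.5, 2000 variable genes without the listed pathway genes, 30 components, 15 neighbours, leidenalg 0.10.2, resolution 0.5), and clusters were named by marker lists. A name other than hepatocyte-like required 3 or more markers raised at least 1.5-fold over the other nuclei. The hepatocyte-like name required 3 or more of 15 hepatocyte markers above the pooled other named classes, by any amount. Clusters with that name had from 4 to 15 such markers. Left unnamed were a WT cluster led by mitochondrial genes (519 nuclei) and an HKO cluster led by cell cycle genes (514 nuclei). A cluster of 949 WT and 2 HKO nuclei, also with leading cell cycle genes, was named hepatocyte-like. The hepatocyte-like class thus held a cycling cluster of WT but not of HKO. The B-like cluster also held plasmacytoid dendritic genes, and no differences in class sizes were compared.

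Within each class, the counts of a library were added up and scaled to CPM; log2 ratios (HKO over WT) were taken with 0.5 CPM added to both. A gene needed a mean of at least 10 CPM and at least 20 UMIs, and a size of 1 on the log2 scale was used for counts. Sums carry exact Poisson, folds exact conditional and shares exact Clopper-Pearson intervals; UMIs of 1 library are not independent livers, and class sums of small classes are imprecise. The calculation was tested on simulated counts. All 45 members are named, and further pathway genes where past the size in their class, with hepatocyte-like values and markers added after their values were seen. The members and gene lists were chosen with earlier results of these data known. Some listed genes were not analysed or are not reported here. Coordinates are from GENCODE vM21 (GRCm38), matched by gene identifier for all 45 members; 17 overlap another gene model. Alternatives covered cell filters, depth, clustering resolution, scaling (TMM and median ratio factors, edgeR 4.0.16), weights, strata, floors and the classes allowed.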

Additional observations from a re-analysis of the deposited data

How the results depend on the processing

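No paired analysis was possible because each group has 1 library, so no replicate could be left out either. In hepatocyte-like nuclei the count of members lower by the size was 12, and it stayed between 9 and 15 under 14 alternatives with 0 higher in each; all 12 were kept under 11 of them. Fga, C2 and Cfb were lost among nuclei under 0.1% mitochondrial share, Cpb2 and C8b at resolution 1, and Klkb1 and C2 at a floor of 50 CPM. The median of -0.68 became -0.74 at resolution 1, where the largest HKO cluster, led by the haemoglobin genes Hba-a1 and Hbb-bs, was unnamed, -0.85 with TMM factors, -0.86 with median ratio factors, -0.72 with equal weight per nucleus and -0.65 under 0.1% mitochondrial share. At resolution 1 the hepatocyte-like class held 2637 HKO nuclei instead of 8142, and 8827 WT nuclei instead of 10923. The unnamed HKO cluster also had the periportal markers Cyp2f2, Sds and Hal among its leading genes. The class at resolution 1 is therefore not the same set of nuclei. TMM moved every hepatocyte-like ratio by -0.18. By the rule's own classes the 17 hepatocyte-like members had a median of -0.46, which became -0.54 at resolution 1, -0.64 with either scaling and -0.40 under 0.1% mitochondrial share. Members higher by the size numbered 2 with equal weight per nucleus (F13a1 and Thbd) against 0. Under 0.1% mitochondrial share 3 were lower and 1 (C1qa, 1.03 on the log2 scale) was higher; the WT library then had 1 B-like, 2 T/NK-like, 5 dendritic-like, 1 cholangiocyte-like and 14 stellate-like nuclei, under the minimum of 20, and their members could give no value. The number highest in hepatocyte-like nuclei was 17, against 11 in WT alone and 26 among classes of at least 100 nuclei. Adding the unnamed HKO cycling cluster to the hepatocyte-like class, chosen after seeing the data, left the counts at 12 and 0. Leaving out the WT cycling cluster instead also gave 12 and 0, with a median of -0.69. Depth limits the small classes and the members under 10 CPM.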
